A study of Saccharomyces cerevisiae with 67 samples.

Results

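The nuclear genome of Saccharomyces cerevisiae carries 275 annotated tRNA genes on its 16 chromosomes, and all of them were examined here against the regions enriched in histone H4 acetylated at lysine 12 (H4K12ac). Every tRNA gene of the sacCer3 annotation was taken, whatever the result at it, and the genes were grouped by amino acid and by anticodon. A gene together with 100 bp on each side is called its window, and a gene is called touched where at least 1 bp of the window lies in a region. The genes read 20 amino acids through 41 anticodons, and they were 71 to 133 bp long, with a median of 73 bp.

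The study grew BY4741 yeast in YPD to exponential phase and took H4K12ac ChIP-seq of mip6Δ cells, which lack the RNA-binding protein Mip6, and of WT cells. Libraries of mip6Δ cells numbered 4 at 30 °C, 3 after 20 min at 39 °C and 4 after 120 min at 39 °C. Libraries of WT cells numbered 3 at 30 °C, 1 after 20 min and 4 after 120 min. These are the 19 H4K12ac libraries that the labels give, and the list does not name the libraries behind a region. The peaks of the H4K12ac samples were merged into 1 list of 1970 regions, which holds positions and no level. A region found in 1 library therefore looks the same in it as a region found in all, and neither strains nor time points could be compared. RNA-seq and total H4 ChIP-seq were not analysed here. BY4741 lacks HIS3, LEU2, MET17 and URA3 wholly or in part. By its reference position HIS3 lay in a region, and the other 3 lay in gaps between regions.

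tRNA genes are transcribed by RNA polymerase III (Pol III). Their promoter lies inside the gene, as an A box near the start and a B box further in, which the factor TFIIIC binds. TFIIIC then places TFIIIB upstream of the gene, and TFIIIB recruits the polymerase. In yeast, the retrotransposons Ty1 to Ty4 insert mainly upstream of tRNA genes. Their long terminal repeats (LTRs) stay behind as solo copies, so that many tRNA genes have an LTR as their neighbour. Several tRNA genes also act as barriers to silent chromatin. Acetylation of the H4 tail marks open chromatin at active promoters of protein-coding genes, and H4K12ac was chosen in the study as such a mark.

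Most tRNA genes have exact copies elsewhere in the nuclear genome. The 275 genes held 70 different sequences, and only 33 genes had a sequence of their own. The sequences below are the ones on which the comparison of copies turns. For the first 7, some copies were touched and some were not. For the last 2, every copy was touched. They are given 5′ to 3′ on the coding strand as DNA, from the RefSeq R64 (sacCer3) genome, with capitals at the anticodon and at matches to the B box core GTTCNANNC.
tRNA-Gly(GCC), 16 copies: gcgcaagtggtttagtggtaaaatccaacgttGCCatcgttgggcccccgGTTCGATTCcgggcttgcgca
tRNA-Asp(GUC), 15 copies: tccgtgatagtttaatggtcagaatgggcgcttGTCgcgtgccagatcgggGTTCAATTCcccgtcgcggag
tRNA-Lys(CUU), 14 copies: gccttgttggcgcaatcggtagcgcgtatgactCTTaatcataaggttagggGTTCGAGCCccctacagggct
tRNA-Ala(AGC), 11 copies: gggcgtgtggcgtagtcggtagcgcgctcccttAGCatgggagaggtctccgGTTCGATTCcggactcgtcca
tRNA-His(GUG), 7 copies: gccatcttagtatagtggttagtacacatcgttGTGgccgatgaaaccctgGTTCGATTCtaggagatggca
elongator tRNA-Met(CAU), 5 copies: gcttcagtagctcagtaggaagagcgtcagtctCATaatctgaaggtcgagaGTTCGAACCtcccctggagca
initiator tRNA-Met(CAU), 5 copies: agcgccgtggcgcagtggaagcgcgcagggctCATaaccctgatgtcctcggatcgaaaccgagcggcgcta
tRNA-Val(AAC), 13 copies: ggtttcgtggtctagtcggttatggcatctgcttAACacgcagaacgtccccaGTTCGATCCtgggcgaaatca
tRNA-Ser(AGA), 10 copies: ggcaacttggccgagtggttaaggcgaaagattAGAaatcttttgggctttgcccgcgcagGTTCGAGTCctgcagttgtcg

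The B box core was searched on both strands and was found in 270 of the 275 genes (98.2%), the same number as on the coding strand alone. Of all windows of the genome with the median length of a tRNA gene, 2.72% held it. It was found in 228 of the 232 touched genes (98.3%) and in 42 of the 43 untouched genes (97.7%), so the presence of these letters did not separate them. The 5 genes without a match were the initiator methionine genes, whose copies are printed above with capitals at the anticodon alone. No match says only that these letters were not in the gene.

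There were 6 anticodons with a single gene in the nuclear genome. Their sequences are shown because each of these genes is the sole source of its decoder and has no copy elsewhere.
TRR4, Arg CCG, chrXII:818609-818680, strand +: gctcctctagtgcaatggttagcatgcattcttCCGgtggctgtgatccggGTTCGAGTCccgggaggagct
HSX1, Arg CCU, chrX:538555-538626, strand +: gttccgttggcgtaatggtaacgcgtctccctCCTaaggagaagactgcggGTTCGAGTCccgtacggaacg
CDC65, Gln CUG, chrXIII:808246-808317, strand -: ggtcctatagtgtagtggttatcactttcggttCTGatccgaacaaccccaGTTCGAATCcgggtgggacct
YNCG0028W, Leu GAG, chrVII:700675-700756, strand +: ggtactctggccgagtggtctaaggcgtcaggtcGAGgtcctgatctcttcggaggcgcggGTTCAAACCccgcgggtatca
SUP61, Ser CGA, chrIII:227942-228042, strand +: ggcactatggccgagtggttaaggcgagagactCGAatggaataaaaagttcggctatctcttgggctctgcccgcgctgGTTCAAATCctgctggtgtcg
TRT2, Thr CGU, chrXI:46735-46806, strand -: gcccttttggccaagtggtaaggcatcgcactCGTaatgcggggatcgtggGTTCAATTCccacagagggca

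Regions touched 232 of the 275 tRNA genes, or 84.4% (95% Wilson interval 79.6 to 88.2%, which covers the counting of genes only). The share was 66.3% over every window of the genome with the median tRNA gene length and 100 bp on each side, and 90.5% for the starts of the 6002 protein-coding genes with 100 bp on each side. tRNA genes lie almost wholly outside protein-coding genes. The 270 that overlapped none were touched in 84.1% of cases, against 76.8% of genome windows that also overlapped none and lay over 1000 bp from a tRNA gene. tRNA genes thus stood above both backgrounds and below the starts of protein-coding genes.

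The size of the overlap gave another order. Regions held the whole window of 166 tRNA genes (60.4%), part of the window of 66 (24.0%) and none of it in 43. Among genome windows outside protein-coding genes, 68.0% lay wholly in a region and 8.81% in part. For the tRNA genes outside protein-coding genes these shares were 60.0% and 24.1%. tRNA genes were therefore touched more often than such windows, yet they were less often wholly covered and more often sat at the edge of a region. Of the bases of all tRNA windows, 68.9% lay in regions, and of the bases of the genes themselves 66.4%, where regions covered 61.8% of the nuclear genome. The gene itself lay wholly inside a region in 174 cases and partly in 19. In 39 further genes a region reached a flank and no base of the gene.

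By amino acid, glutamine, proline, serine and tryptophan had every gene touched, 47 genes in all. The counts were 10 of 10 for Gln, 12 of 12 for Pro, 19 of 19 for Ser and 6 of 6 for Trp. The lowest shares among amino acids with at least 10 genes were those of Ala with 10 of 16 (62.5%), Arg with 13 of 19 (68.4%) and Leu with 15 of 21 (71.4%). Histidine, with 7 genes, had 4 touched. Between these ends lay Lys with 16 of 21, Cys with 3 of 4 and Tyr with 6 of 8. Asn, Met and Phe each had 8 of 10 touched. Ile had 13 of 15, Glu 14 of 16, Asp and Thr 15 of 16 each, Val 17 of 18 and Gly 20 of 21. Groups of 4 to 21 genes leave each share coarse, and no test between isotypes was made.

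**Figure D1:**
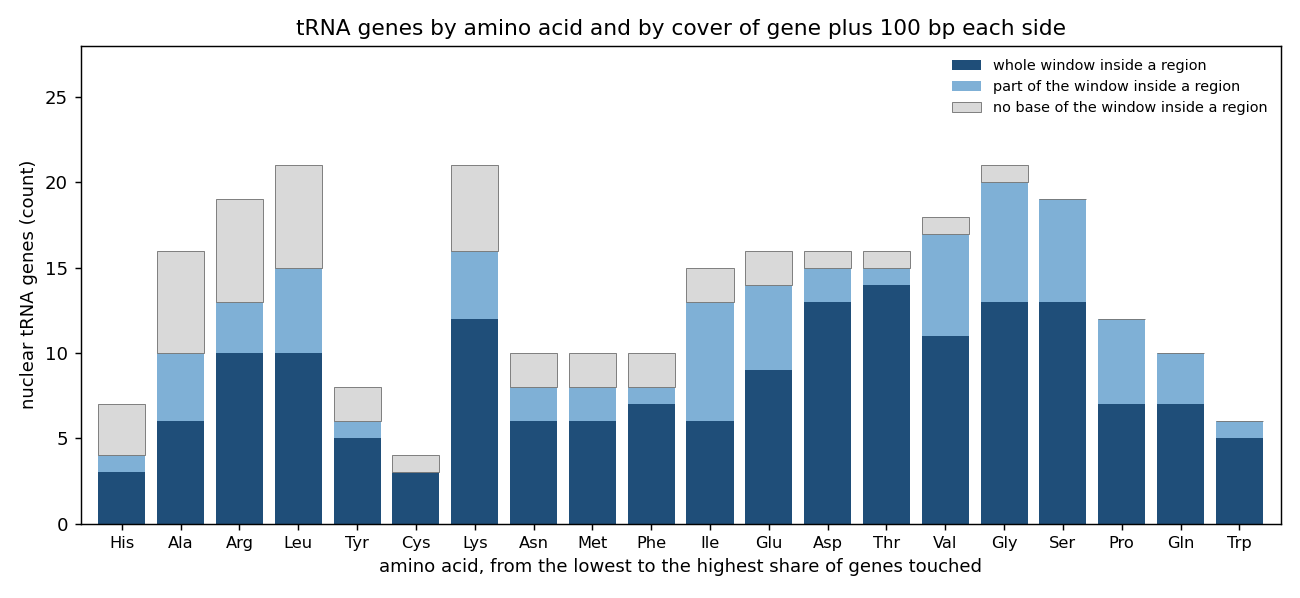
Number of nuclear tRNA genes (y axis) for each of the 20 amino acids (x axis, from the lowest to the highest share touched), split into genes whose window of gene plus 100 bp on each side lies wholly, partly or not at all in an H4K12ac region. Gln, Pro, Ser and Trp at the right have no untouched gene, while Ala, Arg and Leu have 6 each.

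The split by anticodon showed where the untouched genes of an isotype lay. All genes were touched for 19 anticodons, and 22 had at least 1 untouched gene. Among the 15 anticodons with 10 or more genes, 3 had every gene touched. These were AAC of valine with 14 genes, AGA of serine with 11 and UGG of proline with 10. Alanine was low for both of its anticodons, with 7 of 11 genes for AGC and 3 of 5 for UGC. In arginine, ACG had 3 of 6 and UCU 9 of 11. In leucine, CAA had 6 of 10, UAA 6 of 7 and UAG 2 of 3. In lysine, CUU had 11 of 14 and UUU 5 of 7. In each of these isotypes the untouched genes were spread over more than 1 anticodon.

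The remaining anticodons with untouched genes were AAU of isoleucine with 11 of 13, UUC of glutamate with 12 of 14, GCC of glycine with 15 of 16 and AGU of threonine with 10 of 11. CAC of valine had 1 of 2. Asp genes all carry GUC, Asn genes GUU and Cys genes GCA, so their counts are those of the amino acid. The same holds for His with GUG, Met with CAU, Phe with GAA and Tyr with GUA. Fully touched smaller groups were UUG of glutamine with 9 genes, CCA of tryptophan with 6, and GCU of serine and UGU of threonine with 4 each. UCC of glycine and UGA of serine had 3 genes each. CUC of glutamate, CCC of glycine, UAU of isoleucine, AGG of proline and UAC of valine had 2 genes each. Isotypes with few genes were found at both ends of the range.

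Of the 6 single-gene anticodons, 5 were touched. TRR4, which encodes the arginine tRNA with anticodon CCG, was the exception. It lay 409 bp from the nearest region on chromosome XII, with an LTR at 206 bp and the start of RPL26A, a ribosomal protein gene, at 632 bp. It was the only anticodon of the nuclear genome with no touched gene. SUP61, the tRNA for serine codon UCG, and TRT2, for threonine codon ACG, lay wholly inside regions and had no LTR within 5000 bp. CDC65 (Gln) and YNCG0028W (Leu) were also covered over the whole window, with an LTR at 220 and 348 bp. HSX1, the arginine tRNA with anticodon CCU, had 136 of 272 bp covered, since a region of chromosome X begins inside the gene.

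Grouped by the number of genes that share the anticodon, 5 of 6 genes were touched at 1 copy, 33 of 38 (86.8%) at 2 to 5 copies, 79 of 100 (79.0%) at 6 to 10 and 115 of 131 (87.8%) at over 10. The share did not move in 1 direction with copy number. Genes with an annotated intron were touched in 49 of 60 cases (81.7%) and genes without one in 183 of 215 (85.1%). Every sequence present in 2 or more copies had at least 1 touched copy. Of the 37 such sequences, 22 had touched and untouched copies and 15 had only touched ones.

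The mixed sets are informative because the transcribed sequence, with its A and B boxes, is the same in all copies. They held 176 genes, 37 of them untouched. An LTR lay within 500 bp of 31 of the 37 untouched copies (83.8%) and of 83 of the 139 touched copies (59.7%). A Ty element lay within 500 bp of 11 untouched copies (29.7%) and of 9 touched ones (6.47%). The nearest protein-coding start lay over 1000 bp away for 19 untouched copies (51.4%) and 31 touched ones (22.3%), with medians of 1017 and 476 bp. Pooled over the 22 mixed sequences, untouched and touched copies thus differed in their neighbours. The sequences also differ in their share of touched copies, so the pooled shares mix isotypes with copies of 1 sequence.

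The alanine AGC genes show this in detail. Of the 11 copies, YNCF0011C, YNCG0034W, YNCK0008W and YNCM0018C were wholly covered, and YNCL0035C, YNCM0035C and YNCD0004W had 236, 161 and 70 of 273 bp covered. YNCJ0005C, YNCH0006C, YNCP0022W and YNCK0019W were untouched, at 116, 176, 183 and 1057 bp from a region. An LTR lay 16 to 204 bp from all 4 of the untouched copies. It lay 16, 107, 172 and 187 bp from 4 of the touched copies and 1926 to 30923 bp from the other 3. The nearest protein-coding start lay over 1000 bp away for 2 of the 11 copies, among them the untouched YNCH0006C. The untouched YNCK0019W and YNCJ0005C had a start at 138 and 530 bp, unlike the pooled difference by start. The windows of the untouched copy farthest from a region and of the wholly covered copy farthest from an LTR are printed with the gene in capitals, to show that the same gene stands in different flanks.
YNCK0019W, untouched, chrXI:517888-518160, strand +: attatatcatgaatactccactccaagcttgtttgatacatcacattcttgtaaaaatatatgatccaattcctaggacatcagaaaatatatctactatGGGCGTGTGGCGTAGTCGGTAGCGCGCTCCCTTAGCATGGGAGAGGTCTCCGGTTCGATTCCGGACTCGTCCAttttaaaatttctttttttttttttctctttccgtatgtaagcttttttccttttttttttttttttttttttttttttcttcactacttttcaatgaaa
YNCM0018C, wholly covered, chrXIII:321047-321319, strand -: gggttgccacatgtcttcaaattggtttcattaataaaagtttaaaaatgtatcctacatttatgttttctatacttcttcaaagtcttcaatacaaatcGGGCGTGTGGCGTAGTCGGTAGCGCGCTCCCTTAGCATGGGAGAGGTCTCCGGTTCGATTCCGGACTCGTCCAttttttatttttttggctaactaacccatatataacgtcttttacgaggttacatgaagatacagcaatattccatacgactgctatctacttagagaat

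Histidine had the lowest share of any amino acid, and its 7 genes are all identical. YNCG0003C, YNCG0011W and YNCH0001W were wholly covered, and YNCK0012C had 82 of 272 bp covered. YNCE0013W, YNCE0021C and YNCM0020W were untouched, at 164, 375 and 2753 bp from a region. The nearest protein-coding start lay over 1000 bp away for 5 of the 7 genes, against 74 of all 275 tRNA genes. The 5 were the touched YNCG0003C, YNCG0011W and YNCK0012C and the untouched YNCE0013W and YNCE0021C, so this distance did not separate the copies. An LTR lay within 500 bp of 5 of the 7 genes, among them the touched YNCG0003C, YNCG0011W and YNCK0012C. YNCE0013W was untouched although its nearest LTR was 30501 bp away.

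Methionine is read by separate initiator and elongator tRNAs, which share an anticodon and differ in sequence. Of the 5 initiator genes, IMT2, IMT3 and IMT4 were wholly covered and IMT1 was covered over 103 of 272 bp. YNCC0008W, an exact copy of them on chromosome III, was untouched at 1225 bp from a region, with an LTR at 111 bp. Of the 5 elongator genes, EMT1, EMT3 and EMT5 were wholly covered and EMT4 was covered over 223 of 273 bp. EMT2 was untouched at 453 bp from a region, with a Ty element at 177 bp. Each kind therefore had 4 of 5 genes touched.

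Cover along the chromosome dipped at the tRNA gene, relative to 500 bp on either side. The share of genes whose position lay in a region was 73.1% at 500 bp upstream of the start, 65.5% at the start and 81.1% at 500 bp downstream, with the highest value of 81.8% at 550 bp. The lowest value within 2000 bp was not at the gene but 61.1%, as at 1990 bp upstream. Most tRNA genes are repeated sequence, from which reads of 50 bp cannot be placed uniquely, and the part of this in the dip was not tested. Protein-coding starts had the opposite shape, with 82.2% at 500 bp upstream, 89.9% at the start and 53.1% at the lowest point, 1440 bp downstream. Of the 100 bp upstream of tRNA genes 66.8% of bases were covered, and of the 100 bp downstream 73.1%. Among the 66 partly covered genes, the downstream side had more covered bases in 44 and the upstream side in 22. Of the 66, 20 had a Ty element within 500 bp, the group with one-sided cover described below. With no LTR within 500 bp the 100 bp flanks were nearly even, with 79.2% of bases covered upstream and 80.0% downstream. The dip also appeared among the 103 genes with no LTR within 500 bp, with 84.5% at 500 bp upstream, 75.7% at the start and 86.4% at 500 bp downstream.

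**Figure D2:**
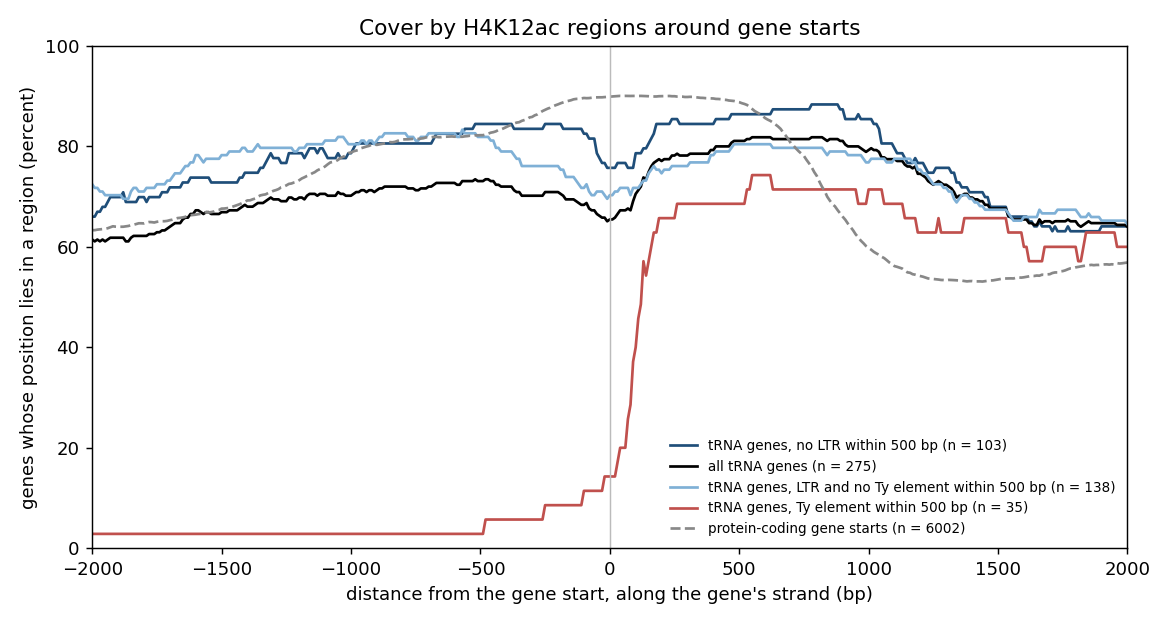
Share of genes (y axis, percent) whose position lies in an H4K12ac region, at steps of 10 bp within 2000 bp on either side of the gene start, read along its strand (x axis), for 4 sets of tRNA genes and, dashed, for protein-coding gene starts. The 35 tRNA genes near a Ty element are at 14.3% at their start and reach 74.3% at 550 bp downstream, while protein-coding genes are highest near the start.

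tRNA genes with an LTR nearby had less cover. An LTR lay within 500 bp of 172 tRNA genes, and in 165 of these it lay upstream. Of the 172, 137 were touched (79.7%), and of the 103 without such an LTR 95 were touched (92.2%), a difference of -12.6 percentage points. It was -7.36 with 500 bp on each side of the gene and -19.9 where the whole window had to be covered. By distance, 117 of 148 genes were touched with an LTR up to 250 bp away (79.1%), 20 of 24 up to 500 bp (83.3%), all 7 up to 1000 bp, all 22 up to 5000 bp and 66 of 74 beyond 5000 bp (89.2%), each class starting where the one before ends. Genome windows at those distances were touched in 60.0%, 62.0%, 61.7%, 61.0% and 67.4% of cases. Those outside protein-coding genes and over 1000 bp from a tRNA gene were touched in 51.6%, 68.7%, 65.7%, 70.7% and 79.0%, so a lower share close to an LTR was found in such windows as well. By the family of the LTR within 500 bp, 92 of 115 genes near a Ty1 LTR were touched (80.0%), 6 of 9 near a Ty2 LTR, 30 of 37 near a Ty3 LTR (81.1%) and 9 of 11 near a Ty4 LTR.

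The lowest cover was at genes beside an annotated Ty element. A Ty element lay within 500 bp of 35 tRNA genes, and 23 of these were touched (65.7%), but only 3 over the whole window. With an LTR and no Ty element within 500 bp, 115 of 138 genes were touched (83.3%), and with neither 94 of 102 (92.2%). The covered share of window bases was 28.1%, 71.7% and 79.2% in these 3 groups. Genome windows outside protein-coding genes and over 1000 bp from a tRNA gene were touched in 24.5%, 72.4% and 78.2% of cases. Windows inside a Ty element were not left out of the 24.5%. Among all genome windows within 500 bp of a Ty element that overlapped none, 56.8% were touched, in or outside protein-coding genes. Each group of tRNA genes thus stood above the windows of its own class, but the group near a Ty element by less against windows beside the element.

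At the 35 genes near a Ty element the cover was one-sided. Regions reached the 100 bp downstream of 23 genes and the 100 bp upstream of 5, and covered 52.1% and 12.1% of those bases. In 25 of the 35 no base of the gene lay in a region, and 13 of these were touched through the downstream flank alone. The serine genes YNCB0006W and YNCG0025C, for example, had 98 and 62 of 282 bp covered and none in the gene. With an LTR and no Ty element, the flanks were nearly even, with 70.9% of bases upstream and 73.1% downstream. Of the 50-mers in the 500 bp upstream of genes near a Ty element 64.2% occur more than 1 time in the genome, against 19.5% near an LTR alone and 2.23% near neither. Downstream the shares were 1.65%, 0.836% and 0.241%. Reads of 50 bp from such sequence cannot be placed uniquely, and how the study treated them is not given in the sources used here, so the part of repeated sequence in this result was not tested. Whether BY4741 carries each Ty element of the reference was not tested either.

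**Figure D3:**
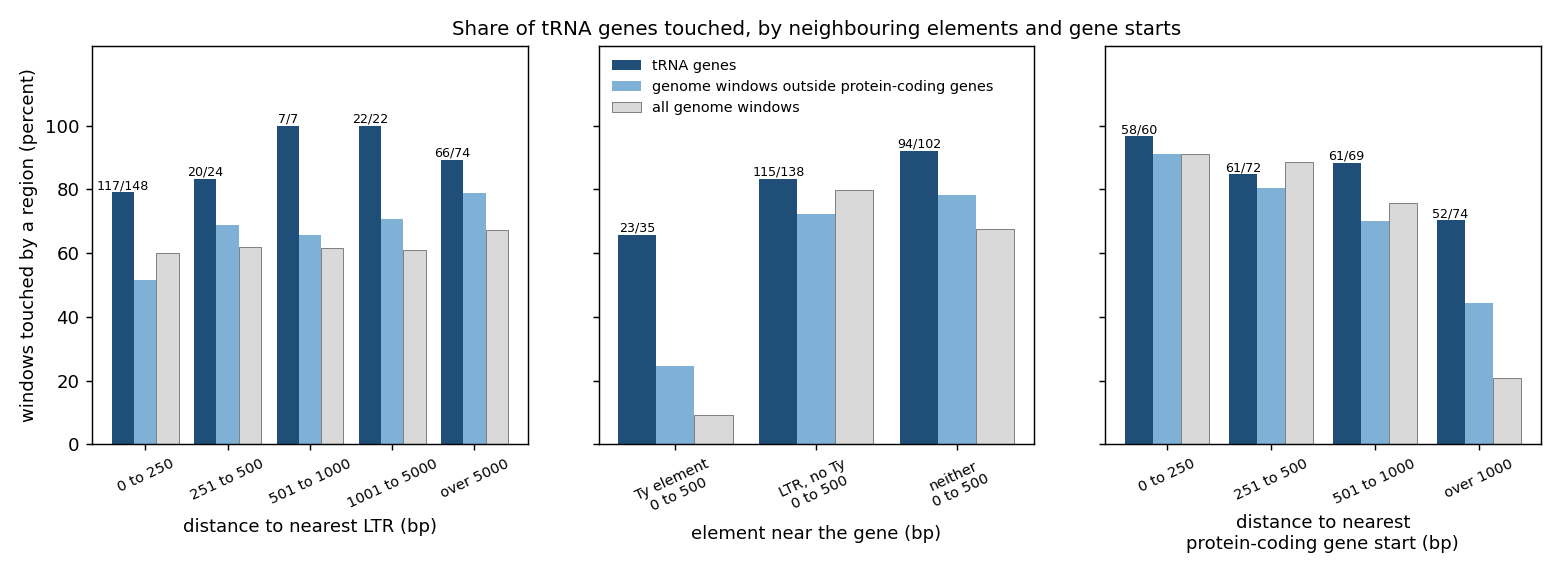
Share of windows touched by an H4K12ac region (y axis, percent) for tRNA genes, for genome windows that overlap no protein-coding gene and lie over 1000 bp from a tRNA gene, and for all genome windows, by distance to the nearest LTR (left), by a Ty element or LTR within 500 bp (middle) and by distance to the nearest protein-coding gene start (right); numbers give genes touched over genes in the class. Windows that overlap an LTR or Ty element are counted in its nearest class. tRNA genes beyond 1000 bp from a start are touched in 52 of 74 cases, against 44.2% and 20.9% of windows.

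The tRNA gene itself is nearly always repeated sequence. Outside the gene, 32 genes had a repeated 50-mer in their 100 bp flanks, and 24 of these were touched (75.0%). Of the 243 genes without one, 208 were touched (85.6%). A repeated 50-mer in the flanks was thus found at 8 of 43 untouched (18.6%) and 24 of 232 touched genes (10.3%). Pooled over the genes of a group, 35.9% of the 50-mers in the 500 bp upstream were repeated for untouched and 15.6% for touched genes.

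The share touched fell off less with distance from a protein-coding start among tRNA genes than among genome windows. Up to 250 bp from a start, 58 of 60 tRNA genes were touched (96.7%). From there to 500 bp it was 61 of 72 (84.7%), from 500 to 1000 bp 61 of 69 (88.4%) and beyond 1000 bp 52 of 74 (70.3%). Genome windows outside protein-coding genes and over 1000 bp from a tRNA gene were touched in 91.2%, 80.4%, 70.1% and 44.2% of cases, and all genome windows in 91.2%, 88.6%, 75.7% and 20.9%. The gap between tRNA genes and the genome was thus widest far from a start. It held in finer classes. From 1000 to 1500 bp 28 of 37 tRNA genes were touched (75.7%), against 55.3% of windows outside protein-coding genes. From 1500 to 2000 bp 17 of 25 were touched (68.0%), against 43.0%, and beyond 2000 bp 7 of 12 (58.3%), against 29.6%.

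The nearest start lay inside a Ty element for 13 tRNA genes, 7 of them untouched, since the genes of Ty elements are annotated as protein-coding. Among the tRNA genes up to 1000 bp from a start, 180 of 201 were touched, which is 19.3 percentage points above those further away. With 250 and 500 bp on each side of the gene the difference was 9.61 and 5.84 percentage points. With starts inside Ty elements left out, the difference was 25.5 percentage points. The classes can be read jointly. With no LTR within 500 bp and a start within 1000 bp, 87 of 90 genes were touched (96.7%). With an LTR and a start so placed, 93 of 111 were touched (83.8%). With an LTR and no start within 1000 bp it was 44 of 61 (72.1%), and with neither LTR nor start 8 of 13 (61.5%). All genome windows in these classes, in the same order, were touched in 85.3%, 66.8%, 51.6% and 19.5% of cases. The class with neither was thus the lowest among tRNA genes. It stood farthest above all genome windows of its class, which include those inside protein-coding genes. Of windows over 1000 bp from a start, 44.2% were touched outside protein-coding genes and over 1000 bp from a tRNA gene. That share is for any distance from an LTR and was not taken for each joint class.

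**Figure D4:**
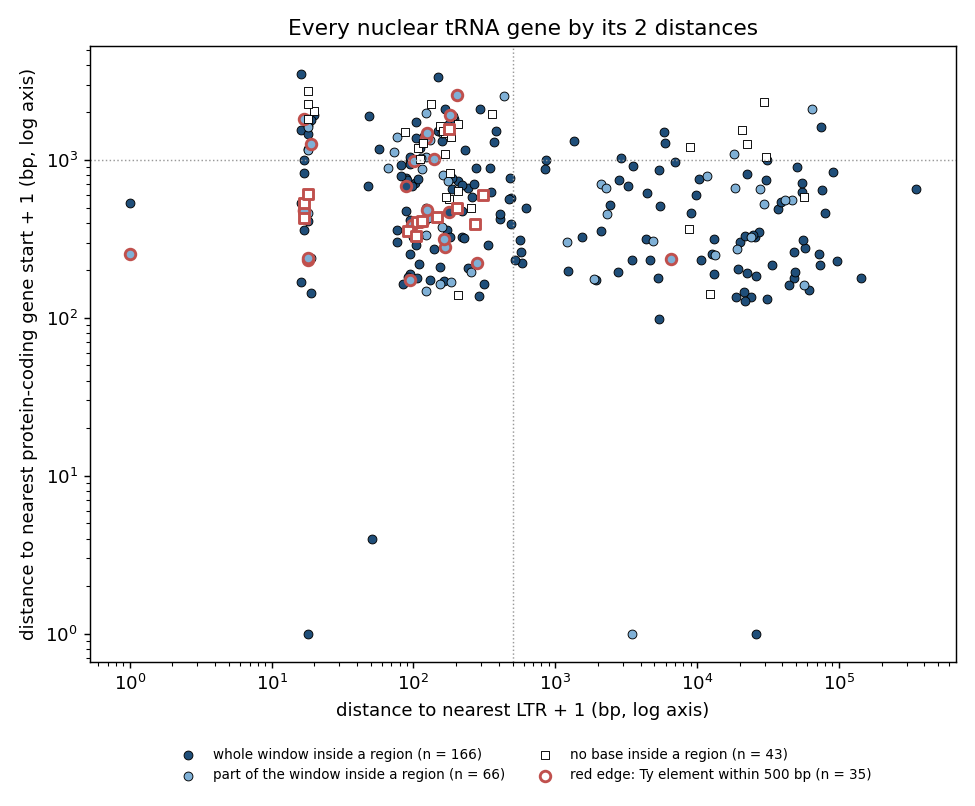
Each nuclear tRNA gene by its distance to the nearest LTR (x axis) and to the nearest protein-coding gene start (y axis), both in bp plus 1 on log axes, with the cover of its window by H4K12ac regions as fill and shape and a red edge where a Ty element lies within 500 bp; dotted lines stand at 500 and 1000 bp. The lower right field, with a start within 1000 bp and no LTR within 500 bp, holds 87 touched and 3 untouched genes.

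Isolated tRNA genes gave a further view. There were 10 with no LTR within 5000 bp and no protein-coding start within 1000 bp, and 5 of them were touched. Of all genome windows over 1000 bp from a start, at any distance from an LTR, 20.9% were touched. The share was 44.2% for those outside protein-coding genes and over 1000 bp from a tRNA gene. YNCD0003W (Lys), YNCD0021C (Glu) and YNCJ0023C (Ser) were wholly covered. The valine genes YNCE0026W and YNCK0014W had 148 and 161 of 274 bp covered. YNCL0034W (Leu), YNCP0020W (Ile) and YNCM0033C (Arg) were untouched and lay 105, 106 and 108 bp from a region, just outside the limit of 100 bp. YNCE0013W (His) lay 164 bp and YNCJ0008W (Arg) 1583 bp away.

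Those 3 were also the untouched genes nearest to a region among all tRNA genes. The touched genes with the fewest covered bases were YNCE0022C (Lys) with 12 bp, YNCN0004W (Thr) with 14 bp, and YNCL0051C (Ile) and YNCE0018W (Glu) with 16 bp each. Of the 43 untouched genes, 14 lay within 200 bp of a region and 14 beyond 1000 bp, with a median of 409 bp. The gap between regions in which an untouched gene lay had a median length of 3317 bp, against 1617 bp over all 1954 gaps. A longer gap is more likely to hold any given gene, so these lengths too are a description.

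The untouched gene farthest from any region was YNCG0030C, 1 of 4 cysteine genes, on chromosome VII at 4348 bp, with a Ty element 16 bp from it. YNCC0001C (Glu) came next at 4207 bp. SUP53 (Leu), at 2431 bp, lay with it in 1 gap of 15147 bp on chromosome III that also holds LEU2. YNCL0038W (Ile) lay 3061 bp from a region in a gap of 11456 bp on chromosome XII that holds MET17. YNCL0037W (Leu) lay in that gap too. Strain BY4741 lacks LEU2 and MET17, and how far the missing DNA reaches towards these 4 tRNA genes was not tested. Without the 4 genes, 85.6% of tRNA genes were touched. The other far genes were YNCM0020W (His) at 2753 bp, TGA1 (Ala) at 1989 bp, YNCM0007C (Gly) at 1760 bp, YNCJ0008W (Arg) at 1583 bp, YNCG0008W (Leu) at 1578 bp and YNCE0028C (Arg) at 1293 bp. Of the 10 farthest genes, those with a Ty element within 500 bp were YNCG0030C, SUP53, YNCM0020W, TGA1, YNCM0007C and YNCE0028C.

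YNCC0014W, a threonine gene beside the silent mating-type locus HMR, is known as a barrier to the spread of silent chromatin. It lies at chrIII:295484-295556 on the plus strand and is 1 of 11 identical AGU copies, the other 10 of which were touched. It was untouched, at 918 bp from a region and in a gap of 3045 bp. An LTR lay 154 bp from it and the start of HMRA1 1649 bp from it.

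Of the 1970 regions, 203 held at least 1 base of a tRNA window (10.3%). These had a median length of 5070 bp, against 2699 bp for the others, and a median of 3 protein-coding starts against 2. A longer region is more likely to reach any given gene, so the lengths are a description. A single tRNA gene lay in 177 of them, 2 in 23 and 3 in 3. The 3 regions with 3 genes lie on chromosomes VII and X, and 1 of them holds HSX1, YNCJ0026W (Asp) and SUP4 (Tyr).

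Regions without any protein-coding start made up 6 of the 203 with a tRNA gene (2.96%) and 3.57% of the others. The regions with a tRNA gene were longer, and regions of like length were not compared, so these shares are a description. The longest of the 6, chrII:196371-199301, holds YNCB0004W (Ile) and YNCB0005C (Gly), whose windows were wholly covered and whose nearest start lay 3372 and 3507 bp away. YNCK0010W (Trp) was wholly covered by a region of 2686 bp and lay 2091 bp from a start. YNCE0027C (Glu) had 230 of 272 bp covered and YNCK0014W (Val) 161 of 274 bp. YNCL0050C (Asn) and YNCE0022C (Lys) had 64 and 12 bp covered, in regions of 518 and 677 bp.

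tRNA genes within 1000 bp of each other formed 8 pairs. Both genes were touched in 7 pairs and neither in 1, so no pair was split. In the pairs that stand 10, 61 and 196 bp apart the windows of both genes overlap, so they could hardly differ. The pairs include 4 of an arginine UCU and an aspartate GUC gene that stand 10 bp apart. In 3 of these both genes were wholly covered, and the pair of YNCJ0011W and YNCJ0012W was untouched, at 395 and 313 bp from a region. All 6 tRNA genes within 10 kb of a centromere were wholly covered, against 60.4% of all tRNA genes, and these were chosen after their values were seen.

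The 27 protein-coding genes of the Pol III apparatus were all touched at their starts, where 90.5% of all protein-coding starts were touched, a share close to theirs. The list held 17 for subunits of Pol III such as RPO31 and RET1, 6 for TFIIIC, 3 for TFIIIB (BRF1, BDP1 and SPT15) and MAF1, which represses Pol III. All 27 had the full 201 bp around the start in a region, as had 89.2% of all protein-coding starts. Other RNA genes made by Pol III were touched too. These were SCR1 (the RNA of the signal recognition particle), RPR1 (the RNA of RNase P), SNR6 (U6) and SNR52 (a small nucleolar RNA), with 96.8% of the SNR6 window and the whole of the other 3 covered.

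The 5S rRNA genes in the rDNA array differed from these, with 1 of 6 touched, RDN5-1 over 38.6% of its window. The array is repeated sequence, and its part in this count was not tested. The 8 annotated ETC sites, which bind TFIIIC without Pol III, were all touched, and 7 lay wholly inside regions. These sites were chosen after their values were seen. Of the genome windows outside protein-coding genes and over 1000 bp from a tRNA gene, 76.8% were touched and 68.0% wholly covered, and the difference was not tested.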

How the data were processed

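ChIP-seq with an antibody to H4K12ac was done on mip6Δ and WT BY4741 cells. Adapters were trimmed with Cutadapt, reads were mapped to sacCer3 with Bowtie2, MACS2 was run on the H4K12ac libraries only, and bedtools joined the peaks across libraries. FastQC is also named in the submitters' processing notes. Versions and the peak threshold are not given in the sources used here. The deposited list has 2 positions for each region, its first and last base, and its score column is 0 in every row, so it holds no level. It pools libraries, and the depth behind a region is unknown.

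tRNA genes, protein-coding genes, LTRs and Ty elements were taken from the RefSeq R64 annotation, and region starts were counted from 1. The distance to an element runs from gene edge to element edge, and a protein-coding start is that of the coding sequence. Anticodons were read from the gene sequence at the anticodon stem and loop. Repeated sequence was measured as 50-mers found more than 1 time on either strand. Shares were set beside all genome windows of the median tRNA gene length, with no sampling. No test was made, since the list has no replicates and genes are not replicates.

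Named genes were those with a single-gene anticodon, the initiator genes, the 10 untouched genes farthest from a region, those just inside and outside the limit, those in regions without a protein-coding start, isolated genes, the gene beside HMR and, by sequence, copies that differed in cover. The copies described one by one (Ala AGC, His, elongator Met), the partly covered serine genes near a Ty element, centromere-near genes, gene pairs and the ETC sites were chosen after their values were seen. The members and lists were chosen with earlier results of these data known. The windows outside protein-coding genes, the grouping by Ty element and the finer distance classes were added after seeing the data. The alternatives varied the window, the overlap required, the regions kept, the genes counted and the elements to which distances run. Overlaps, distances and repeats were tested on simulated data. Python 3.11.15, NumPy 2.4.6, pandas 2.3.3, SciPy 1.17.1 and Matplotlib 3.10.9 were used.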

Additional observations from a re-analysis of the deposited data

How the results depend on the processing

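No paired analysis was possible because single libraries cannot be told apart in the merged regions, and none could be left out for the same reason. Of the 59 alternatives, 45 stayed within the interval of the reported value or within 1.5 times the count, and 14 did not. Only the differences by distance to an LTR or to a start have a direction, and none of them reversed. The other alternatives are shares and counts, which cannot reverse. The share of tRNA genes touched was 70.2% for the gene alone, 89.5% and 93.5% with 250 and 500 bp on each side, 67.6% where 50% of the window had to be covered, 60.4% where all of it had to be, and 69.5% without the longest 5% of regions (98 regions of 9736 bp or more). Genome windows under the same settings, except the cover of 50%, had 63.1%, 71.2%, 77.8%, 57.3% and 55.8%, so tRNA genes stayed above all genome windows, by 3.10 percentage points for whole cover. Against windows outside protein-coding genes they stood lower for whole cover, with 60.0% of such tRNA genes and 68.0% of windows. Windows outside protein-coding genes were not counted under the other settings named here. The 4 amino acids with every gene touched became 1 for the gene alone, 0 with cover of 50% or all of the window, 0 without the longest regions and, chosen after seeing the data, 7 without the genes near a Ty element. The difference by distance to a protein-coding start was 9.61 percentage points with 250 bp and 5.84 with 500 bp on each side. That by distance to an LTR was -7.36 percentage points with 500 bp on each side and -19.9 for whole cover. Without the longest regions the covered share of window bases was 55.4%, and 81.5% of the Pol III apparatus genes were touched. The shares of genome bases and of all protein-coding starts were not taken at this setting. The 90.5% of all protein-coding starts was counted with every region kept, so the 81.5% cannot be set beside it. Alternatives added after seeing the data were those without the genes near LEU2 and MET17, those on Ty elements, and starts outside Ty elements. A list without levels, with its peak threshold unknown, limits every count to the presence of a region in at least 1 library.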

Other observations

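By chromosome, the share of tRNA genes touched ran from 5 of 10 on chromosome III to 10 of 10 on chromosome IX. Genome windows were touched in 66.3% of cases over all 16 chromosomes. Their share was not taken for each chromosome, so these counts have no background of their own. Chromosome III holds the untouched genes YNCC0001C, SUP53, YNCC0008W, YNCC0009C and YNCC0014W, and 7 of its 10 tRNA genes have an LTR within 500 bp, against 5 of 10 on chromosome IX. YNCC0001C and SUP53 lie in the gap that holds LEU2, and YNCC0014W lies beside HMR. Chromosome XII had 15 of 21 touched, chromosome VII 32 of 36 and chromosome IV 26 of 28. The 4 tRNA genes within 30 kb of a chromosome end had 3 touched. The 24 mitochondrial tRNA genes of the annotation were left out, since the list holds nuclear chromosomes only.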
